A study of Neurospora crassa with 14 samples.

Results

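The quinate utilization cluster of the filamentous fungus Neurospora crassa was read here as 6 adjacent genes, NCU06023 to NCU06028, chosen by their identifiers in the authors' tables. All 6 were listed in all 5 tables, out of 9552 gene identifiers in all. In order along linkage group VII the reference gene table names them qa-2 (NCU06023), qa-4 (NCU06024), qa-3 (NCU06025), qa-Y (NCU06026), qa-1S (NCU06027) and qa-1F (NCU06028). A seventh gene that it names qa-X (NCU06022) lies beside qa-2, was not chosen by the rule and is described as a neighbour.

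Quinate is a plant compound that this fungus can use as a carbon source when preferred sugars are absent. The cluster encodes the permease and the enzymes that convert quinate to protocatechuate, together with an activator and a repressor of the cluster itself. In the textbook scheme the activator QA-1F switches on all genes of the cluster, its own included, the repressor QA-1S holds the activator inactive, and quinate relieves this hold. The intermediates dehydroquinate and dehydroshikimate are also made in the synthesis of aromatic amino acids.

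Messenger RNA was sequenced in 14 mycelial libraries, 2 per group, from 5 ml cultures grown with shaking (16 h, 32 °C) in a minimal medium with 1.5% sucrose as sugar, and no quinate is named. The groups were strains deleted for sds3 (NCU01599), rlp1 (NCU09007), rlp2 (NCU02898) or eaf-3 (NCU06788), and wild type as their control. A second set held cultures with 5 ul of the histone deacetylase inhibitor Trichostatin A (TSA), and with 0 ul as control, all of one strain with the genotype his-3, pNCU05173::hph and pNCU07152::nat-1, grown with histidine. The concentration of the TSA stock is not given. Within wild type and within each deletion the 2 libraries come from strains with different names, while those of the TSA set are numbered as biological replicates of one strain. The series asks how loss of components of the RPD3 deacetylase complexes, or block of deacetylation, changes transcription. In yeast, Sds3 is a subunit of the large RPD3 complex and Eaf3 of the small one.

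Only the authors' deposited tables of their own comparisons were used, which give for each gene an average signal, a log2 fold change, a p-value and an adjusted p. No value per library and no read total is held, so depth and the spread between the 2 libraries of a group are unknown here. Values after ± are standard errors worked back from each deposited p-value, and intervals are normal 95% intervals made from them. Rose and fell are written only of genes whose deposited adjusted p (FDR) was below 0.05. The deleted genes were checked first: on the log2 scale the authors' deposited tables give -0.76 ± 0.19 for sds3 and -1.03 ± 0.33 for rlp1 in their own deletions, which are partial falls, and -2.95 ± 0.32 for rlp2 and -8.95 ± 1.48 for eaf-3. At 58.9% of the wild type level for sds3 and 49.0% for rlp1, the mRNA of these genes does not by itself show a deletion, so below sds3 deletion and rlp1 deletion stand for libraries labelled so, and every direction drawn from them rests on that label.

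In the sds3 deletion the quinate cluster stood higher than in wild type: 4 of the 6 genes rose and none fell. The genes that rose encode the 3 enzymes of quinate breakdown and the activator, and those that did not pass encode the permease and the repressor. All 6 had log2 fold changes above 0 there, and whether members differ from each other was not tested. In the other comparisons few or no members passed, 0 of 6 for rlp1, rlp2 and eaf-3 and 1 of 6 for TSA, which was the dehydrogenase gene qa-3. The share of all genes that rose in the authors' deposited tables was 19% in the sds3 deletion, 14.6% in the rlp1 deletion, 6.99% in the rlp2 deletion, 20.2% in the eaf-3 deletion and 5.15% with TSA. Beside those shares, 0 or 1 of 6 is not far from what all genes show, while 4 of 6 for sds3 is above it.

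**Figure D1:**
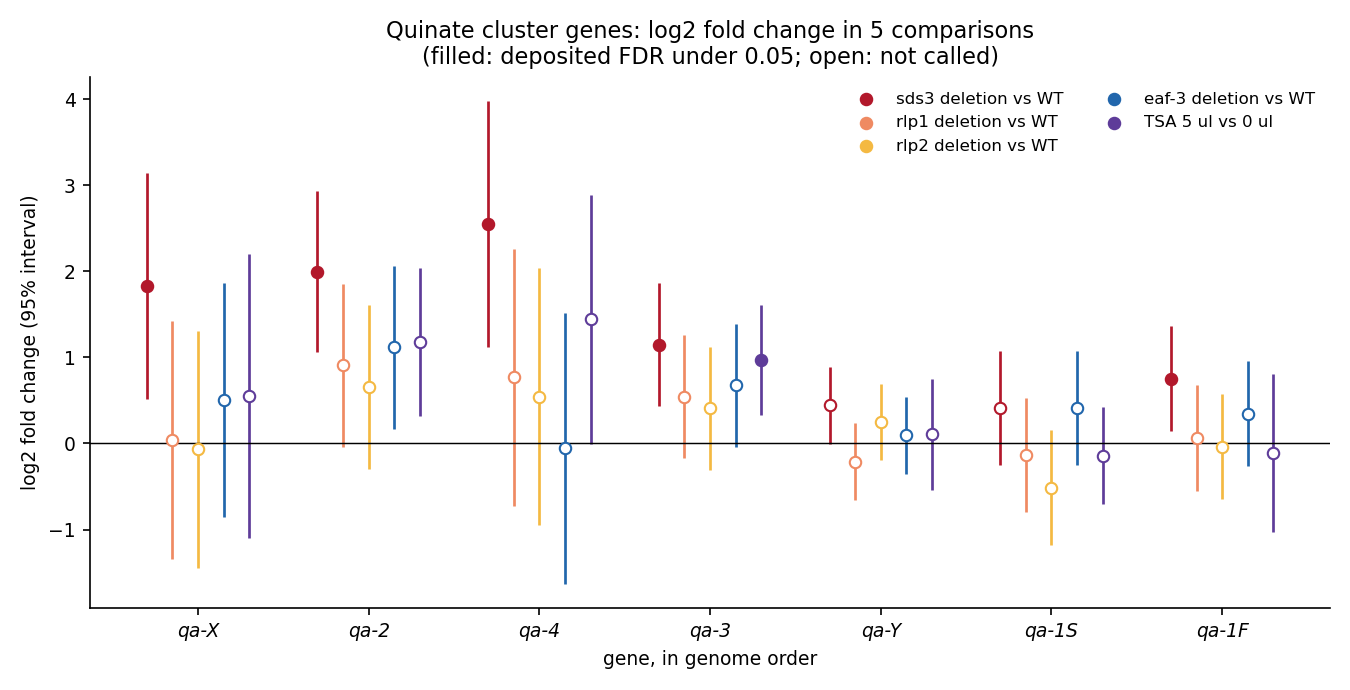
Log2 fold change (vertical axis) of the 6 quinate cluster genes and the adjacent qa-X in each of 5 comparisons, with bars for the 95% interval made from the implied standard error. Filled points passed an adjusted p of 0.05: qa-2, qa-4, qa-3, qa-1F and qa-X in the sds3 deletion and qa-3 with TSA.

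The level of each gene in each group is not held in the files and was implied from the deposited average and the 4 deposited fold changes. This takes the average to cover the 10 libraries of the deletion set with equal weight, which the files do not state, so no error can be given for a level. These levels are normalized expression signals that are not corrected for gene length, so they are set side by side within a gene and not between genes.

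The catabolic enzymes come first. The gene qa-3 encodes quinate dehydrogenase, which starts the pathway by oxidizing quinate to dehydroquinate. Its implied level was 121 in the sds3 deletion, 79.4 in the rlp1 deletion, 72.5 in the rlp2 deletion and 87.3 in the eaf-3 deletion, against 54.6 in wild type. In the authors' deposited table qa-3 rose in the sds3 deletion by 1.15 ± 0.36 on the log2 scale (adjusted p = 0.00684), which is 2.22-fold with an interval from 1.35 to 3.63. For the other deletions the authors' deposited tables give log2 fold changes of 0.54 ± 0.37 for rlp1, 0.41 ± 0.36 for rlp2 and 0.68 ± 0.36 for eaf-3, none past the test (adjusted p = 0.286, 0.554 and 0.146). All 4 deletions thus had an implied level of qa-3 above that of wild type, and for the sds3 deletion alone the adjusted p passed.

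The gene qa-2 encodes the catabolic dehydroquinase, the next step, which turns dehydroquinate into dehydroshikimate. Its implied level was 95.8 in the sds3 deletion, 44.9 in the rlp1 deletion, 37.8 in the rlp2 deletion and 52.0 in the eaf-3 deletion, against 24.0 in wild type. With 2.00 ± 0.48 in the authors' deposited table (adjusted p = 0.000225), a 3.99-fold rise with an interval from 2.09 to 7.62, qa-2 had the smallest adjusted p of the cluster in the sds3 deletion. The eaf-3 value of 1.12 ± 0.48 in the authors' deposited table came close to the threshold without passing (p = 0.0206, adjusted p = 0.0613). Those of rlp1 (0.91 ± 0.48, adjusted p = 0.162) and rlp2 (0.66 ± 0.49, adjusted p = 0.449) in the authors' deposited tables were smaller and did not pass. Their intervals reach up to 3.62-fold and 3.05-fold, so these data do not bound the change of qa-2 in either strain closely.

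The gene qa-4 encodes dehydroshikimate dehydratase, which makes protocatechuate and so leads out of the intermediates shared with aromatic amino acid synthesis. Its implied level was 46.7 in the sds3 deletion, 13.6 in the rlp1 deletion, 11.6 in the rlp2 deletion and 7.69 in the eaf-3 deletion, against 7.99 in wild type. It had the largest rise of the cluster in the sds3 deletion, 2.55 ± 0.73 in the authors' deposited table (adjusted p = 0.00265). This is 5.85-fold with an interval from 2.17 to 15.8, the widest of the 6 genes there. The authors' deposited tables give 0.77 ± 0.76 for rlp1, 0.54 ± 0.76 for rlp2 and -0.06 ± 0.80 for eaf-3, none past the test. Under eaf-3 deletion qa-4 was thus at its wild type level by the point estimate while qa-2 and qa-3 had point estimates above 0, but its interval, from 0.323-fold to 2.86-fold, holds the estimates of both.

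The permease gene qa-Y, whose product carries quinate into the cell, varied least in implied level. Its implied level was 288 in the sds3 deletion, 183 in the rlp1 deletion, 252 in the rlp2 deletion and 226 in the eaf-3 deletion, against 212 in wild type. No table calls it. In the authors' deposited tables its log2 fold changes were 0.44 ± 0.23 for sds3 (p = 0.0507, adjusted p = 0.119), -0.21 ± 0.23 for rlp1, 0.25 ± 0.23 for rlp2 and 0.09 ± 0.23 for eaf-3. Its errors were also the smallest of the cluster in the deletion tables, and the interval for sds3 ends at 1.85-fold, below the point estimates of qa-2, qa-4 and qa-3 in that strain. Those estimates have errors of their own. The interval of qa-3 starts at 1.35-fold and overlaps that of qa-Y, while those of qa-2 and qa-4 start at 2.09-fold and 2.17-fold. Whether qa-Y differs from the enzyme genes was not tested. The annotated spans of qa-Y and qa-3 overlap in the reference gene table (assembly NC12). Whether the counting used strand is not given, so reads of the overlap may have been shared between these genes.

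Of the regulators, the activator gene qa-1F rose in the sds3 deletion and the repressor gene qa-1S did not pass. The implied level of qa-1F was 234 in the sds3 deletion, 145 in the rlp1 deletion, 135 in the rlp2 deletion and 176 in the eaf-3 deletion, against 139 in wild type. Its rise in the authors' deposited table was 0.75 ± 0.31 (adjusted p = 0.045), or 1.69-fold with an interval from 1.11 to 2.57. This call is the least secure of the 4, since it was lost once the log2 fold changes were centred on the median of all genes (0.69, adjusted p = 0.0708). The authors' deposited tables give qa-1F 0.06 ± 0.31 for rlp1, -0.04 ± 0.31 for rlp2 and 0.35 ± 0.31 for eaf-3.

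The implied level of qa-1S was 238 in the sds3 deletion, 162 in the rlp1 deletion, 125 in the rlp2 deletion and 238 in the eaf-3 deletion, against 179 in wild type. The authors' deposited tables give it 0.41 ± 0.34 for sds3, -0.14 ± 0.34 for rlp1, -0.51 ± 0.34 for rlp2 and 0.41 ± 0.34 for eaf-3, none past the test. The lowest value of any member in the 5 comparisons was that of qa-1S in the rlp2 deletion (adjusted p = 0.382). In no comparison did activator and repressor both pass.

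**Figure D2:**
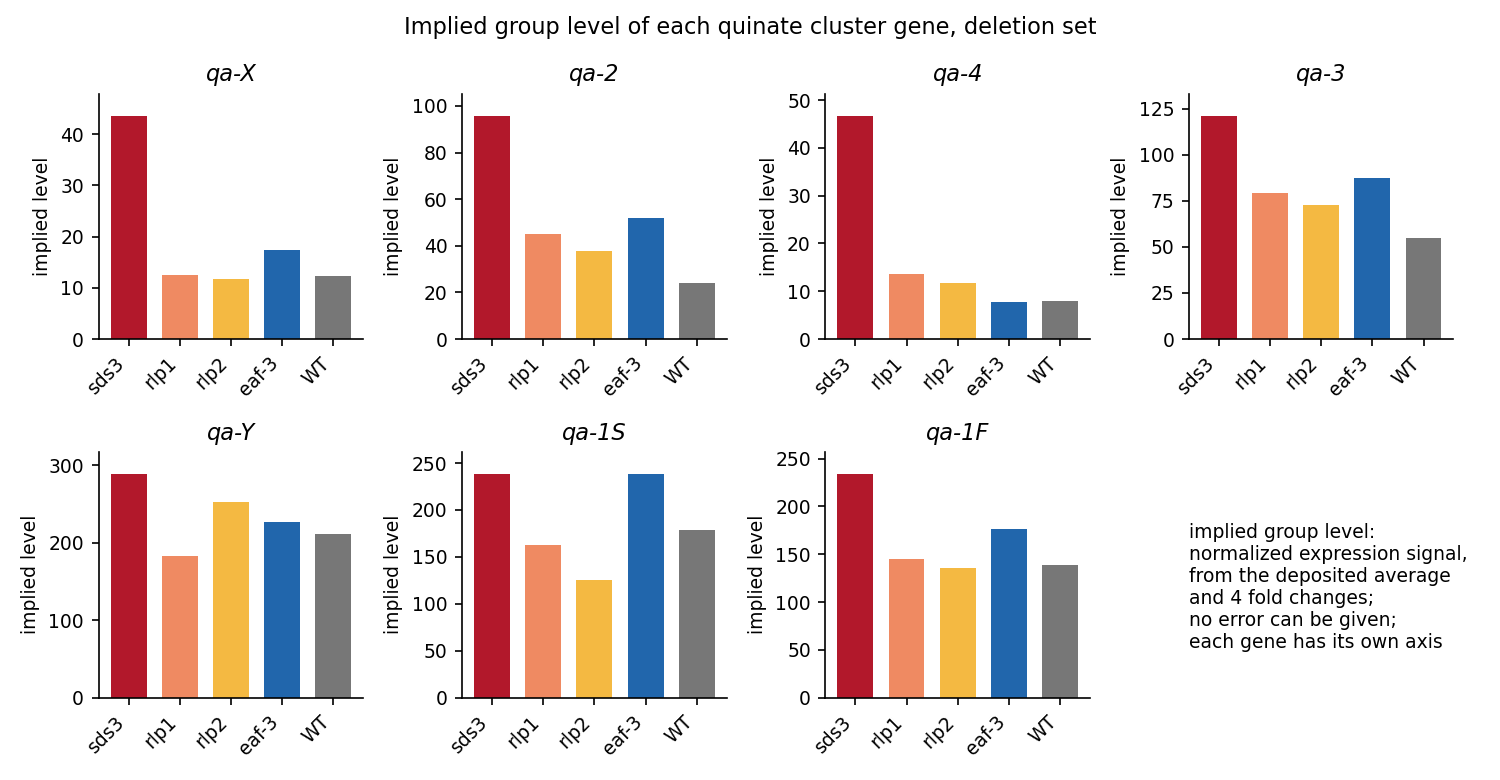
Implied group level (vertical axis, normalized expression signal from 0) of each quinate cluster gene and qa-X in the sds3, rlp1, rlp2 and eaf-3 deletions and in wild type, with no error bars since none can be given. The bar of the sds3 deletion is the tallest for qa-2, qa-4, qa-3, qa-Y, qa-1F and qa-X, and for qa-1S it equals that of the eaf-3 deletion at 238.

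Taken as a list, the 6 genes had a median log2 fold change of 0.95 in the sds3 deletion, against 0.07 over all genes of that table. The medians were 0.30 for rlp1, 0.33 for rlp2 and 0.38 for eaf-3, against 0.00, 0 and 0.08 over all genes. Members ranged from 0.41 to 2.55 for sds3, from -0.21 to 0.91 for rlp1, from -0.51 to 0.66 for rlp2 and from -0.06 to 1.12 for eaf-3. All 4 comparisons share the wild type libraries, so their values for the enzyme genes are not independent of each other. For rlp1, rlp2 and eaf-3, where the authors' test called 0 of 6, the number with an unadjusted p under 0.05 was 0, 0 and 1, the last being qa-2. Under the authors' own category, which also asks for an absolute log2 fold change over 2, the calls in the sds3 deletion come down to 1 of 6, qa-4, and those with TSA to 0.

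TSA was compared with the untreated cultures of the same strain. Of the 6 genes qa-3 alone rose, by 0.97 ± 0.33 in the authors' deposited table (adjusted p = 0.0348), a 1.96-fold change with an interval from 1.26 to 3.06. The other enzyme genes had values of similar or larger size that did not pass, 1.18 ± 0.44 for qa-2 (p = 0.00732, adjusted p = 0.0711) and 1.44 ± 0.74 for qa-4 (p = 0.0504, adjusted p = 0.251) in the authors' deposited table. The permease gene and both regulator genes were close to 0 in the authors' deposited table, at 0.11 ± 0.33 for qa-Y, -0.14 ± 0.29 for qa-1S and -0.11 ± 0.47 for qa-1F. The list median was 0.54.

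The median of all genes in the TSA table was -0.10, so values there were also read relative to it. Relative to this median the log2 changes were 1.07 for qa-3, 1.28 for qa-2, 1.54 for qa-4, 0.21 for qa-Y, -0.04 for qa-1S and -0.01 for qa-1F. After this centring qa-2 passed as well (adjusted p = 0.0431), which makes 2 of 6. The same centring changes the calls over all genes to 547 higher and 234 lower, against 449 and 316 as deposited. The genes qa-2, qa-4 and qa-3 had the 3 highest values of the cluster with TSA, and also in the sds3, rlp1 and rlp2 tables but not in that of eaf-3. Whether the response of a gene differs between TSA and a deletion was not tested, since strain and contrast both differ.

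Whether the deletions differ from each other in the cluster was tested on the difference of their log2 fold changes, from which wild type cancels. Over 6 pairs of deletions, and thus 36 tests of members within fits over all genes, none passed. The pairs with sds3 came nearest. Sds3 minus eaf-3 was 2.60 ± 1.09 for qa-4 (interval 0.48 to 4.73, adjusted p = 0.0716), where 20.3% of all genes passed. Sds3 minus rlp1 was 0.66 ± 0.32 for qa-Y (interval 0.02 to 1.29, adjusted p = 0.2), where 10.2% of all genes passed. Sds3 minus rlp2 was 1.34 ± 0.68 for qa-2 (interval 0.01 to 2.67, adjusted p = 0.253), where 7.43% passed.

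These were the only members with an unadjusted p under 0.05, 1 in each pair with sds3. For the enzyme qa-3 the differences were 0.61 ± 0.51, 0.74 ± 0.51 and 0.47 ± 0.51 for sds3 minus rlp1, rlp2 and eaf-3. For the activator qa-1F they were 0.69 ± 0.44, 0.79 ± 0.44 and 0.41 ± 0.44. For the repressor qa-1S they were 0.55 ± 0.48, 0.93 ± 0.48 and 0.00 ± 0.48. Summing both squared errors counts the wild type error although it cancels, so this test is conservative. With that share left out, 1 gene differed for sds3 minus rlp1 (qa-Y, adjusted p = 0.0203), where 26.4% of all genes passed, and 1 for sds3 minus eaf-3 (qa-4, adjusted p = 0.00492), where 37.6% did. For sds3 minus rlp2 it gave 3, namely qa-2 (adjusted p = 0.0303), qa-1S (adjusted p = 0.0328) and qa-4 (adjusted p = 0.0414), where 22.1% of all genes passed.

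The other 3 pairs, among rlp1, rlp2 and eaf-3, had no member with an unadjusted p under 0.05, where 0.99% (rlp1 minus rlp2), 13% (rlp1 minus eaf-3) and 9.41% (rlp2 minus eaf-3) of all genes passed. For qa-2 the differences were 0.25 ± 0.69 for rlp1 minus rlp2, -0.21 ± 0.68 for rlp1 minus eaf-3 and -0.46 ± 0.69 for rlp2 minus eaf-3. For qa-1S, rlp2 minus eaf-3 was -0.93 ± 0.48 (interval -1.87 to 0.01, adjusted p = 0.26), and it passed with the wild type share left out (adjusted p = 0.0321), where 22.7% of all genes passed. The other pairs without sds3 still had no member called in that way, where 3.81% (rlp1 minus rlp2) and 27.9% (rlp1 minus eaf-3) of all genes passed. The rises of qa-2, qa-4, qa-3 and qa-1F in the sds3 deletion are therefore not shown to be particular to that strain by the conservative test.

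**Figure D3:**
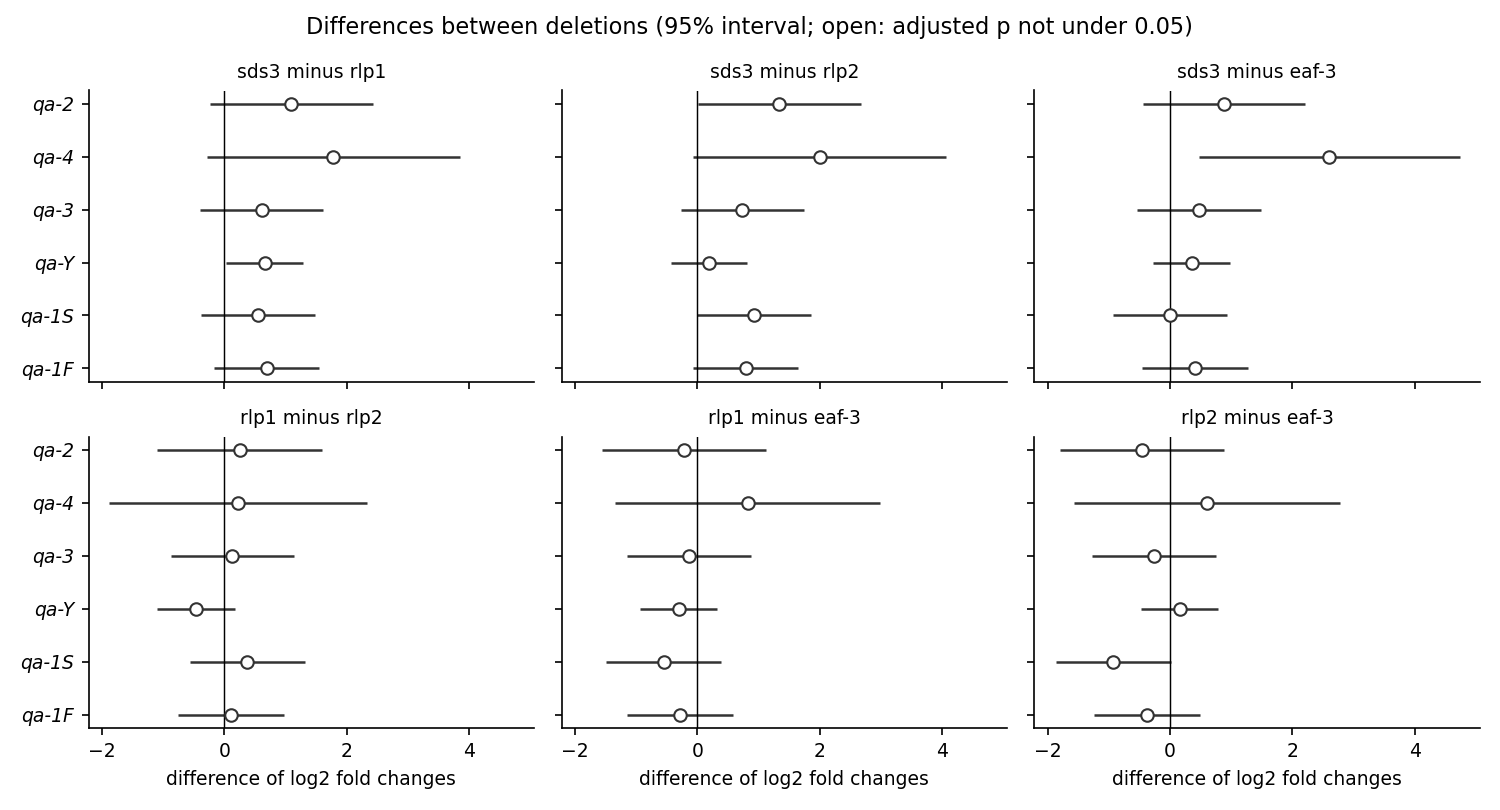
Difference between deletions in the log2 fold change (horizontal axis) of each of the 6 quinate cluster genes, 1 panel per pair, with 95% intervals from both implied standard errors. All points are open since no adjusted p lay under 0.05, and the largest difference is 2.60 for qa-4 in sds3 minus eaf-3.

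The genes around the cluster were read in the order of the reference table, 10 on each side. Next to qa-2, the gene qa-X also rose in the sds3 deletion, by 1.83 ± 0.67 in the authors' deposited table (adjusted p = 0.0218). Its implied level was 43.6 in the sds3 deletion, 12.6 in the rlp1 deletion, 11.7 in the rlp2 deletion and 17.4 in the eaf-3 deletion, against 12.2 in wild type. In the other comparisons the authors' deposited tables give qa-X 0.04 ± 0.71 for rlp1, -0.07 ± 0.70 for rlp2, 0.51 ± 0.69 for eaf-3 and 0.56 ± 0.84 for TSA. In the sds3 deletion the genes that rose thus formed a run of qa-X, qa-2, qa-4 and qa-3, broken by qa-Y and qa-1S before qa-1F. This break is one of the threshold only. The values of qa-Y (0.44 ± 0.23, adjusted p = 0.119) and qa-1S (0.41 ± 0.34, adjusted p = 0.361) in the authors' deposited table were also above 0. Whether they differ from those of the genes that rose was not tested.

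The genes next to these ends were read for sds3 as well. The gene after qa-1F, NCU06029, fell in the sds3 deletion by 0.80 ± 0.22 in the authors' deposited table (adjusted p = 0.00131). The gene after qa-X, NCU06021, did not pass there (0.51 ± 0.22, adjusted p = 0.0571) and fell in the eaf-3 deletion by 0.85 ± 0.22 in the authors' deposited table (adjusted p = 0.00118). Of the 20 neighbours, qa-X among them, 3 rose and 3 fell in the sds3 deletion, of 19 with an adjusted p (median 0.25), beside 19% and 15.7% of all genes. Examples in the authors' deposited table are NCU11300 (1.11 ± 0.38) and NCU17227 (1.17 ± 0.40) up and NCU06035 (-1.09 ± 0.33) down. Among the neighbours 1 rose for rlp1, 1 for rlp2, 2 for eaf-3 and 1 for TSA, and 1 fell for eaf-3. Over all genes 14.6%, 6.99%, 20.2% and 5.15% rose in that order, and 11.5% fell for eaf-3. The neighbour NCU11300 was the one that rose in the rlp1 deletion (2.11 ± 0.37) and in the rlp2 deletion (1.62 ± 0.37) in the authors' deposited tables. It is separated from the cluster by 8 genes, counted from qa-2.

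**Figure D4:**
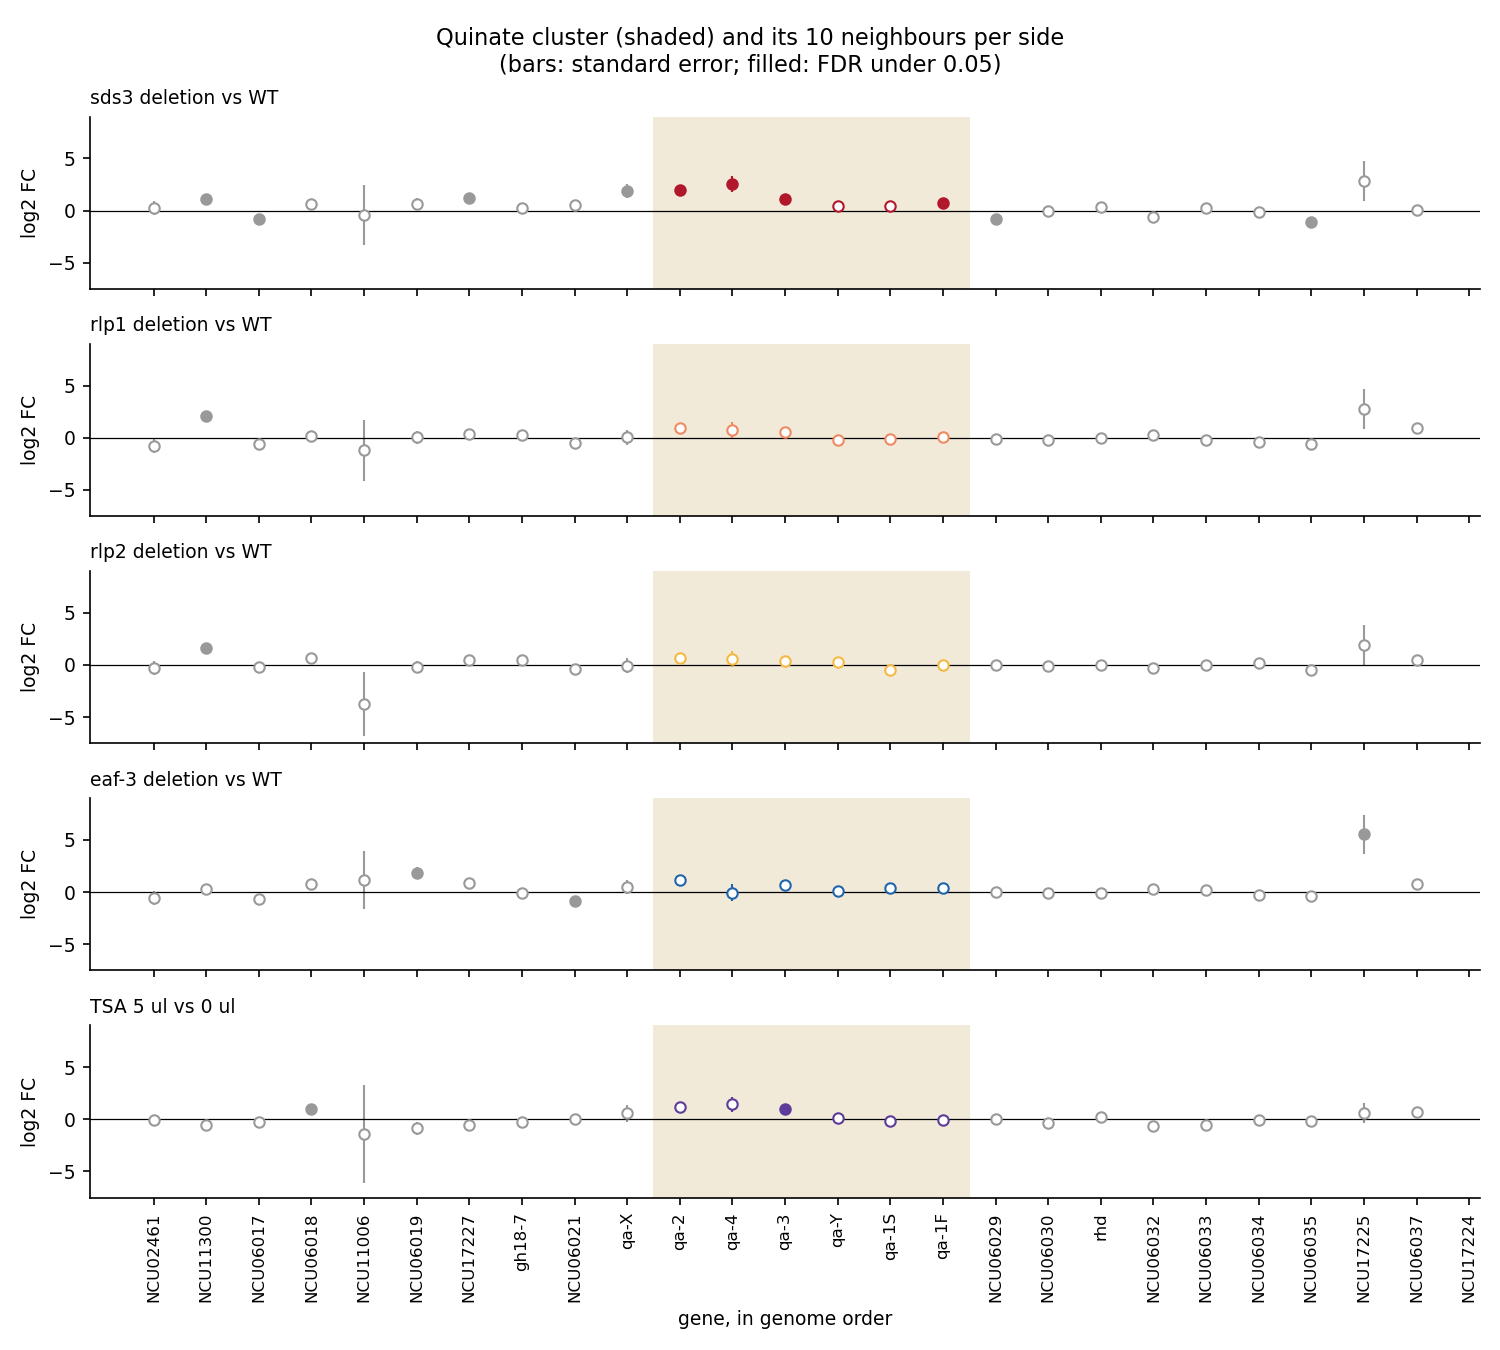
Log2 fold change (vertical axis, bars are 1 implied standard error) of the 6 quinate cluster genes (shaded) and 10 neighbours per side in genome order, 1 panel per comparison, filled where the adjusted p lay under 0.05. In the sds3 deletion the filled points run from qa-X to qa-3 with values from 1.15 to 2.55, and NCU06029 beyond qa-1F is filled at -0.80; NCU17224 is not listed in the tables used here.

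Dehydroquinate and dehydroshikimate are also intermediates of aromatic amino acid synthesis, so the genes of that pathway were read beside the cluster. Of 10 such genes none rose and 3 fell in the sds3 deletion (median -0.50). The authors' deposited table gives aro-1, which encodes the multifunctional AROM enzyme with a dehydroquinase activity of its own, -1.19 ± 0.34 (adjusted p = 0.00233). In the same authors' deposited table aro-6, a DAHP synthase gene of the first pathway step, fell by 1.65 ± 0.44, and the tryptophan synthesis gene trp-1 fell by 0.89 ± 0.28. Thus in the sds3 deletion the genes for the catabolic and the synthetic dehydroquinase, qa-2 and aro-1, moved in opposite directions.

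In the rlp1 deletion 1 of the 10 fell, again aro-1 (-1.20 ± 0.34, adjusted p = 0.00344 in the authors' deposited table), and the median was -0.50. For rlp2 none passed (median -0.46), with 2 genes at an unadjusted p under 0.05. In the eaf-3 deletion 5 fell and none rose (median -0.74), among them the DAHP synthase genes aro-6 (-1.54 ± 0.44) and aro-8 (-1.06 ± 0.31) in the authors' deposited table, where aro-1 had -0.73 and did not pass. With TSA 1 rose, aro-6, by 1.15 ± 0.36 in the authors' deposited table (adjusted p = 0.024). Over all genes 15.7% fell for sds3, 8.61% for rlp1, 4.02% for rlp2, 11.5% for eaf-3 and 3.62% for TSA in the authors' deposited tables. The shares that rose there were 19%, 14.6%, 6.99%, 20.2% and 5.15% in the same order.

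Genes of sugar sensing and of the use of other carbon sources were read for the same reason, since the cluster is known to be held down by preferred sugars. Of 12 listed genes 2 rose and 1 fell in the sds3 deletion (median -0.16), beside 19% and 15.7% of all genes. In the authors' deposited table acu-6, the gene for phosphoenolpyruvate carboxykinase, rose by 3.52 ± 0.29, acu-9 for malate synthase rose by 2.28 ± 0.28, and acu-5 for acetyl-CoA synthetase fell by 1.64 ± 0.25. The carbon catabolite repressor gene cre-1 did not pass in any comparison, with values in the authors' deposited tables of 0.42 for sds3, 0.51 for rlp1, 0.53 for rlp2, 0.29 for eaf-3 and 0.06 for TSA.

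The acu-6 rise was seen in all 5 of the authors' deposited tables, at 3.05 ± 0.29 for rlp1, 1.55 ± 0.29 for rlp2, 0.95 ± 0.29 for eaf-3 and 1.53 ± 0.46 for TSA. In the rlp1 deletion 1 gene rose and 1 fell, for rlp2 1 rose, for eaf-3 2 rose and 3 fell, and for TSA 1 rose. Over all genes 14.6% rose and 8.61% fell for rlp1, and 6.99% and 4.02% for rlp2. For eaf-3 these shares were 20.2% and 11.5%, and for TSA 5.15% and 3.62%. The falls in the list for eaf-3 included acu-3, the isocitrate lyase gene (-2.29 ± 0.32 in the authors' deposited table), and the invertase gene inv (-1.63 ± 0.59). In each of the 5 tables at least 7 of the 12 genes did not pass. Cel-1, which the reference table also names fas, stands in this list by symbol.

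**Figure D5:**
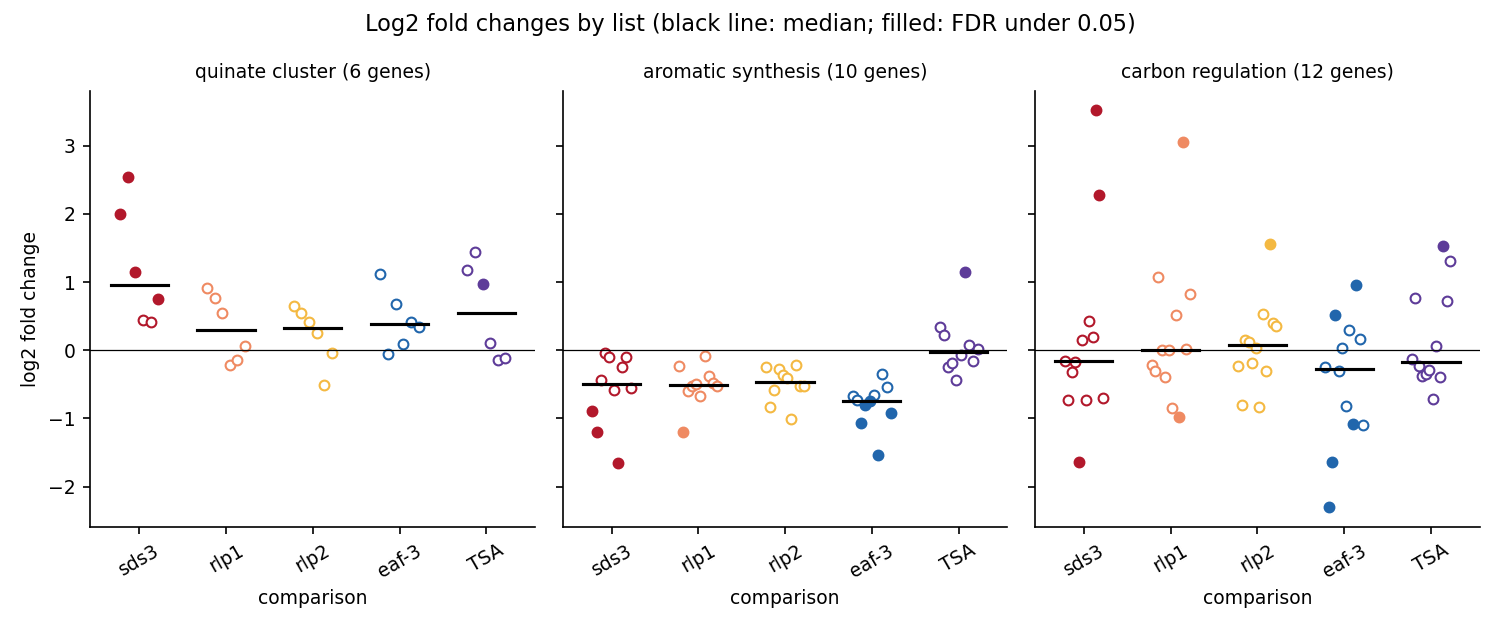
Log2 fold change (vertical axis) of single genes in 5 comparisons for the 6 quinate cluster genes, 10 genes of aromatic synthesis and 12 of carbon regulation, with black lines at the medians and filled points where the adjusted p lay under 0.05. In the sds3 deletion the median is 0.95 for the quinate cluster, -0.50 for aromatic synthesis and -0.16 for carbon regulation.

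Genes listed as markers of conidia, the asexual spores that a mycelial culture could also hold, were read as well. Whether each of them is specific to conidia was not tested. Of 10 markers 6 rose in the sds3 deletion, 9 in the rlp1 deletion, 5 in the rlp2 deletion, 4 in the eaf-3 deletion and 1 with TSA, and none fell. Over all genes 19% rose for sds3, 14.6% for rlp1, 6.99% for rlp2, 20.2% for eaf-3 and 5.15% for TSA. The summed implied level of the 10 markers was 118094 in the sds3 deletion, 262054 in the rlp1 deletion, 130682 in the rlp2 deletion and 75907 in the eaf-3 deletion, against 32154 in wild type. This sum adds genes of different lengths and mostly follows 1 of them, eas, the hydrophobin gene of the conidial surface, which of the 5 tables passed only in that of rlp1 (3.43 ± 0.91, adjusted p = 0.0016 in the authors' deposited table). With eas left out it was 40630 in the sds3 deletion, 42270 in the rlp1 deletion, 42256 in the rlp2 deletion and 64229 in the eaf-3 deletion, against 11735 in wild type. That sum in turn mostly follows ccg-1 in wild type, where its implied level was 7647. In the authors' deposited tables ccg-1 rose for rlp2 (1.99 ± 0.58) and eaf-3 (2.86 ± 0.58). It did not pass there for sds3 (1.03 ± 0.58, adjusted p = 0.158) or rlp1 (1.25 ± 0.58, adjusted p = 0.0984). The order of the deletions thus depends on single genes, while the sum of each deletion was above that of wild type with and without eas. Of 4 genes listed as markers of perithecia, the sexual fruiting bodies, pre-1 and pre-2 encode pheromone receptors. In the sds3 deletion pre-1 rose (1.60 ± 0.43) and app fell (-4.23 ± 0.64) in the authors' deposited table, where 15.7% of all genes fell. There poi-2 (-1.47 ± 0.66) and pre-2 (1.03 ± 0.90) did not pass. In the rlp1 deletion 3 rose (app, pre-1 and pre-2). In the rlp2 deletion (app and poi-2), the eaf-3 deletion (pre-2 and poi-2) and with TSA (app and pre-2) 2 rose. The part of other cell types in the rises of qa-2, qa-4, qa-3 and qa-1F was not tested, and in bulk samples fewer cells of a type and less RNA per cell cannot be told apart.

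The 5 genes whose values were nearest to the cluster's median pattern were found by the Euclidean distance over the 5 log2 fold changes, among 8346 genes whose deposited mean reached 10. They were mus-51 (NCU08290, distance 0.28), NCU09573 (0.30), NCU16667 (0.34), NCU04604 (0.35) and NCU02752 (0.35). In the authors' deposited tables mus-51 had 0.78 for sds3, 0.12 for rlp1, 0.36 for rlp2, 0.49 for eaf-3 and 0.55 for TSA. Distances of the members from their own median ran from 0.61 for qa-3 to 1.95 for qa-4, and these 5 genes were picked as the nearest, so the distances are not compared. By point estimates qa-2 lay above the members' median in all 5 comparisons, qa-4 above it in 4 and qa-1S below it in 4.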

How the data were processed

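The submitters' processing notes name STAR 2.7.3a, RSEM 1.3.1 and also DESeq2 1.24.0 without roles; build, annotation and strand setting: not given in the sources used here. The library kit was a stranded one, per the labels' protocols. Each deposited table has columns, per the file headers, for an average over libraries (a normalized signal), a log2 fold change, its p-value and FDR, and a score of -1, 0 or 1 for the authors' category. The average signal deposited was the same in all 4 deletion tables. The TSA average covers libraries outside its comparison, since 20 genes had a log2 fold change of 0 with a mean above 0. Columns of values per library numbered 0.

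From the files were computed, in Python 3.11.15 with scipy 1.17.1 and pandas 2.3.3, the standard error (absolute log2 fold change over the normal quantile of the deposited p-value), implied group levels and differences between deletions with Benjamini-Hochberg adjustment over all genes (tested on simulated data). Calls were taken from the deposited FDR at 0.05. Of 9552 identifiers 9551 matched the reference table (NC12), used for names and gene order. The members, the lists, and the rules for named genes (all members, qa-X, deleted genes, up to 4 genes per list by FDR, the 5 genes of like pattern) were chosen with earlier results of these data known. Some list genes, among them inv, cre-1, cel-1, eas and ccg-1, were named outside the FDR rule, and some genes of smaller FDR were not named. The alternatives tried were an FDR threshold of 0.01, the authors' category (FDR under 0.05, absolute log2 fold change over 2), adjustment over every p-value, centring on the median, a mean of at least 10 and, for differences, removal of the shared control error. The standard errors of a gene were nearly the same in the 4 deletion tables (median ratio of largest to smallest 1.01), so the authors' p-values appear to use one pooled spread. Depth is unknown, so precision is given only by these errors.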

Additional observations from a re-analysis of the deposited data

How the results depend on the processing

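In the sds3 deletion 4 members were called, and the authors' category, which asks for an absolute log2 fold change over 2, kept 1. For TSA, where 1 was called, the FDR threshold of 0.01 and the authors' category each left 0, and centring on the median gave 2. No member differed between deletions, but with the shared control error removed 1 did for sds3 minus rlp1, 3 for sds3 minus rlp2, 1 for sds3 minus eaf-3 and 1 for rlp2 minus eaf-3; by construction this alternative uses smaller errors. For single members 142 of the values against control under an alternative kept their direction and their side of the threshold, 7 lost the call and 1 gained it. Only centring alters a log2 fold change, so direction could change under that alternative alone. The FDR threshold of 0.01 and the authors' category can remove a call but cannot add one. Values not called therefore stayed so under these by construction, and the count of 142 is not a measure of stability. Of the differences 102 kept their direction and their side of the threshold and 6 gained the call. No alternative alters the value of a difference, so its direction could not change. Since no difference was called at first, the threshold of 0.01 could not change any of its 36 results. The count of 102 is therefore not a measure of stability either. Adjustment over every p-value and a mean of at least 10 changed no call of a member. The qa-1F call in the sds3 deletion was lost at an FDR threshold of 0.01, under the authors' category and on centring. No paired analysis was possible because values of single libraries are not held in the tables, and for the same reason leaving out each replicate was not run. Where an average is low, as for qa-4 (17.5 in the deletion tables), errors are wide, and depth cannot be checked.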
